A study of Mus musculus with 16 samples.

Results

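Promoter and gene-body histone marks were examined at 10 genes of the NF-κB pathway in hematopoietic stem cells (HSCs) of young and aged mice. The genes were the transcription factor subunits Nfkb1, Nfkb2, Rel, Rela and Relb, and the classical inhibitors (IκB) Nfkbia, Nfkbib and Nfkbie. The others were the nuclear IκB gene Nfkbiz and the feedback enzyme gene Tnfaip3. They were taken by name from GENCODE M21 (mm10 assembly) and make up 10 of its 21851 protein-coding genes. HSCs were sorted from bone marrow of C57BL/6 mice that were 10 weeks old (young) or 20 months old (aged). No genetic change or treatment was given to either group, and the study bought its mice as females. Sorted cells were negative for lineage markers, IL-7Rα, CD34, CD48 and Flt3, and positive for Sca-1, c-kit and CD150. ChIP-seq, the sequencing of DNA pulled down with an antibody to a chromatin protein, was done with 2 libraries per mark and 2 inputs at each age. The marks were H3K4me3, found at active promoters, and H3K27me3 and H2AK119ub1, which the Polycomb repressive complexes deposit.

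The authors deposited 1 list of peaks for each mark and age, marked as pooled, so 6 lists were analysed and no difference between the ages could be tested. Peak names leave unclear whether both libraries entered the lists of H3K27me3 and H2AK119ub1. Every comparison of ages given here sets 1 list beside another. A gene was counted as carrying a mark when a listed peak overlapped the 1 kb on either side of one of its protein-coding start sites. A wider window, the gene body with 5 kb on either side, was used to find every peak near a gene.

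NF-κB proteins are held in the cytoplasm by IκB inhibitors and enter the nucleus once a kinase complex has marked the inhibitor for destruction. The pathway is switched on by inflammatory cytokines and bacterial products, to which HSCs are known to respond, and it is damped by inhibitors that NF-κB itself induces. NF-κB binds a short DNA motif, the κB site, which occurs in the promoters of several of its own subunits and inhibitors.

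The pileup of each H3K4me3 peak, the reads stacked at its highest point, could be recovered from the listed fold and p-value. Read numbers given for a peak are this pileup and not all reads within the peak. The lowest background was 3.70 reads in the young list and 3.52 in the aged list, and at that background no peak with fewer than 13 reads was listed at either age. The young list was the longer, with 11371 H3K4me3 peaks against 6723. As a check of the labelled cell type, H3K4me3 was listed at the promoters of 8 of 10 HSC markers in young and 8 of 10 in aged HSCs, compared with 33.8% and 23.3% of all protein-coding genes. Slamf1, which encodes the sorting marker CD150, had a promoter peak in neither list, so a gene without a listed peak may still carry the mark below the threshold of the caller.

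H3K4me3 was listed at the promoters of 7 of the 10 NF-κB genes in young HSCs, compared with 33.8% of all genes. In aged HSCs it was listed at 6 of the 10, compared with 23.3% of all genes. Nfkb2, Rel, Nfkbib, Nfkbie, Nfkbiz and Tnfaip3 carried it at both ages, as did 17.5% of all genes. Rela carried it in the young list only, a class that held 16.3% of all genes. None of the 10 carried it in the aged list only, where 5.78% of all genes were found. Nfkb1, Relb and Nfkbia had no H3K4me3 peak at either age. Of all 21851 genes, 13198 had no promoter H3K4me3 at either age.

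The Polycomb marks were nearly absent. H3K27me3 was listed at none of the 10 promoters at either age, compared with 16.0% of all genes in young and 8.24% in aged HSCs. H2AK119ub1 was listed at none in young HSCs, where 1.91% of all genes had it. In aged HSCs it was listed at Nfkb2 alone of the 10, compared with 14.0% of all genes. Counts of 0 or 1 among 10 genes lie close to these backgrounds.

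**Figure D1:**
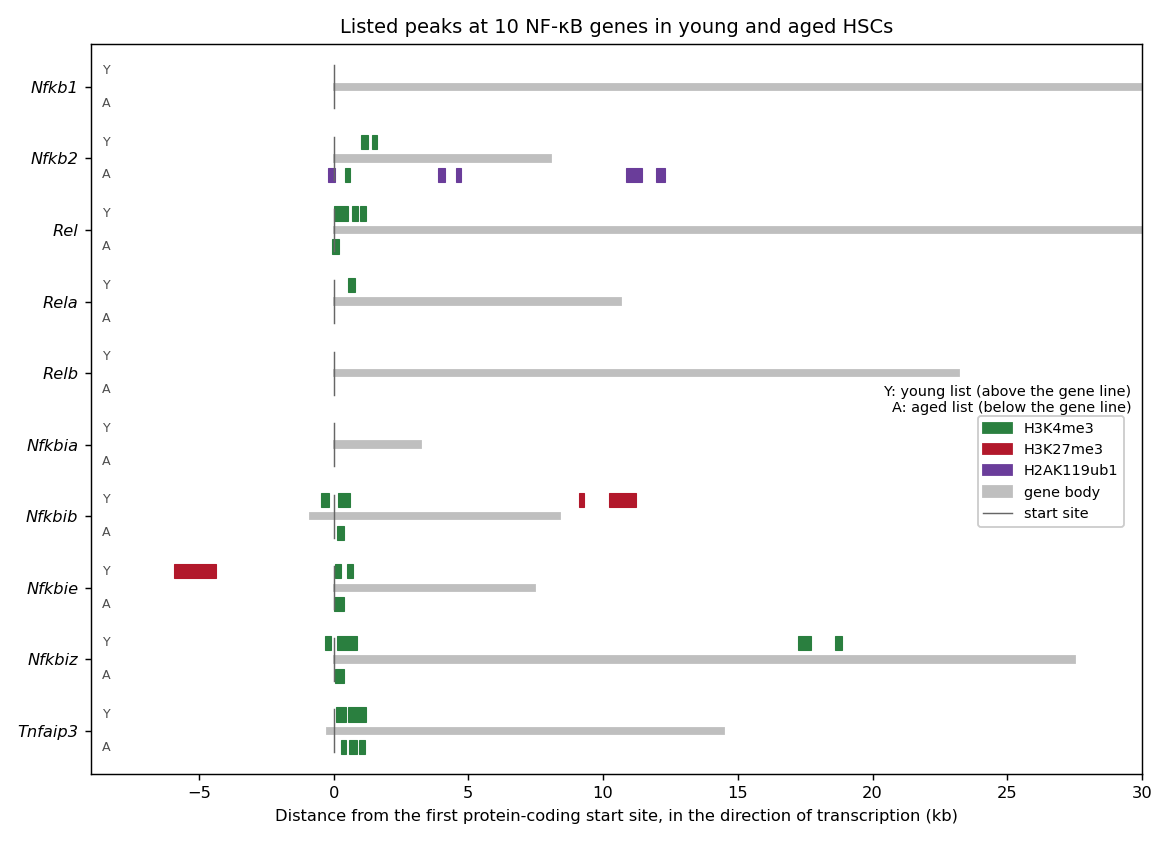
Each row is a gene, drawn by distance in kb from its first protein-coding start site in the direction of transcription (Nfkb1 and Rel run past the right edge). Coloured boxes are listed peaks of 3 marks, young above and aged below the grey gene body. H3K4me3 boxes cluster at the start of 7 genes in young and 6 in aged HSCs, and Nfkb1, Relb and Nfkbia have no box.

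Promoter sequences are shown because several members held a feature that the choice of genes did not use, a match to the κB consensus within 250 bases before a start site. RefSeq promoter entries (build GRCm38.p6, the assembly called mm10) were found for 7 of the 10 genes, and the 250 bases before each RefSeq start were read on the strand of the gene. Nfkb1, Relb and Nfkbiz were not among them. Of the 7 genes, 5 (71.4%) held at least 1 stretch matching the 10-base κB consensus on either strand, compared with 9.24% of 16517 protein-coding genes in the same table. Counted by promoter, this was 7 of 10 against 8.03% of 20145. The count by promoter includes several entries of Nfkb2 and so does not rest on separate genes. An Nfkb2 entry that is not printed, chr19:46305680-46305929, overlaps the one before it and held 1 match. A match is a run of letters and not a measured binding site. Capitals mark the matches, with overlapping ones merged into 1 stretch.
Nfkb2, chr19:46304487-46304736, plus strand: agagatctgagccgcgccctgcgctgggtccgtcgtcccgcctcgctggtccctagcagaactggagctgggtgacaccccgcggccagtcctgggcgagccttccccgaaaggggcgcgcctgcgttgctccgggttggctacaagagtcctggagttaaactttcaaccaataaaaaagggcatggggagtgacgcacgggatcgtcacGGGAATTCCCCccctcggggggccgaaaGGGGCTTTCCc
Nfkb2, second start, chr19:46305445-46305694, plus strand: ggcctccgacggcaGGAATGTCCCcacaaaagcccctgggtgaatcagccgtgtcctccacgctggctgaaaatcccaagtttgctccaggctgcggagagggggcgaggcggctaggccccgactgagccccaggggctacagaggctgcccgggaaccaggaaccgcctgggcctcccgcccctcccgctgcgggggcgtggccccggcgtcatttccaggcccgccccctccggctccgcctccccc
Rel, chr11:23770970-23771219, minus strand: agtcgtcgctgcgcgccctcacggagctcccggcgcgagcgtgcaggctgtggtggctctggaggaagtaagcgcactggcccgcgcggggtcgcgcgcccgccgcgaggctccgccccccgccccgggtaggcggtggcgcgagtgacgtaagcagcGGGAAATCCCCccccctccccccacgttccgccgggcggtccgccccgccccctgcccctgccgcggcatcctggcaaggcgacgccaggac
Nfkbia, chr12:55492648-55492897, minus strand: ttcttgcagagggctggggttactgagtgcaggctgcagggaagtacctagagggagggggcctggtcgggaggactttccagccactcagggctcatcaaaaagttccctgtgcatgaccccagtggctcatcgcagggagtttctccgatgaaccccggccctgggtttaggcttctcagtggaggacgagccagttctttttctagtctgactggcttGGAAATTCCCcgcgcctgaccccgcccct
Nfkbie, chr17:45555450-45555699, plus strand: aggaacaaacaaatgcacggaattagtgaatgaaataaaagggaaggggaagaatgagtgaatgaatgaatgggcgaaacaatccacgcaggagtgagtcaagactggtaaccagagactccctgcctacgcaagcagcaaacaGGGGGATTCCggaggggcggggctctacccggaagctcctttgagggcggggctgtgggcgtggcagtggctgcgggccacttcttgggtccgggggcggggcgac
Tnfaip3, chr10:19015411-19015660, minus strand: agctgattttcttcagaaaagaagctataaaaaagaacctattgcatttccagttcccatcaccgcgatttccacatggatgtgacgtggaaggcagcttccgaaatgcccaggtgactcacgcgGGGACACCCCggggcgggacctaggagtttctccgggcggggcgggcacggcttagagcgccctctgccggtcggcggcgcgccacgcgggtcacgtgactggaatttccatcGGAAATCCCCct
Rela, chr19:5637291-5637540, plus strand: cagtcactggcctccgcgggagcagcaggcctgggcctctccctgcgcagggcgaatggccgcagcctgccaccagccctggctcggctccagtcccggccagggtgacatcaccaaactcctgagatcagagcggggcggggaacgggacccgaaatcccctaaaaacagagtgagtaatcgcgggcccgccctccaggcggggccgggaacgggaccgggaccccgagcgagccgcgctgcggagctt

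Among the subunits, Nfkb2 encodes p100, the precursor of p52 and itself an inhibitor of the alternative pathway. The gene lies at chr19:46304320-46312385 on the plus strand and has 4 annotated coding start sites. In the young list, H3K4me3 was listed at chr19:46305342-46305591 (5.04-fold, 24 reads), in an intron between start sites, and at chr19:46305741-46305940 (4.23-fold, 20 reads), in a UTR. In the aged list a single peak was found at chr19:46304735-46304934 (3.98-fold, 17 reads), over an upstream start site. The aged peak lay 408 bp from the nearest young peak, so the promoter was marked at both ages but no position was shared. The last base of the κB match next to the first RefSeq start lay in the aged peak, and the match at chr19:46305459-46305468 lay inside a young peak.

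Nfkb2 was also the member with H2AK119ub1. The aged list held 5 H2AK119ub1 regions in its window and the young list none. A region of 283 bp at chr19:46304095-46304377 (3.13-fold) covered the most upstream start site, upstream of the aged H3K4me3 peak. This region, the aged H3K4me3 peak and the 5.04-fold young peak also lay over an exon of AC114539.1, annotated as a bidirectional-promoter noncoding RNA. Their signal therefore cannot be assigned to Nfkb2 alone. At chr19:46308182-46308456 (2.99-fold) and chr19:46308861-46309060 (3.25-fold), regions lay over coding exons of Nfkb2. At chr19:46315183-46315760 (3.47-fold) and chr19:46316292-46316609 (3.00-fold), they lay beyond the gene, in introns of the neighbour Psd. The promoter region was weak by its −log10 q-value of 1.5, and it was not kept when only regions with a value of at least 4 were used. It was also not kept when the aged list was shortened to the length of the young list by keeping its widest regions. Both steps removed the mark from most genes that had it, so the loss is not particular to Nfkb2. Of all genes, 14.0% had aged promoter H2AK119ub1 in the full list, 0.188% with the stricter value and 3.53% with equal lists.

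Rel encodes c-Rel, a subunit used mostly in blood cells, and lies at chr11:23736847-23770970 on the minus strand. Its young list held 3 H3K4me3 peaks inside the gene, at chr11:23769763-23769986 (2.35-fold), chr11:23770083-23770296 (3.17-fold) and chr11:23770434-23770964 (4.25-fold, 19 reads). The aged list held 1 peak, at chr11:23770775-23771036 (5.25-fold, 24 reads), which covered the start site and overlapped the strongest young peak. The marked stretch was thus longer in the young list, at 969 bp against 262 bp, and the highest fold was in the aged list. The weaker young peaks had −log10 q-values of 1.41 and 3.23 and folds above only 0.255% and 9.04% of their list. They were not kept at a value of at least 4, and the strongest young peak alone was 531 bp. The κB stretch of the Rel promoter lay 15 bp upstream of the aged peak and 87 bp upstream of the nearest young peak.

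Rela encodes p65, the main activating subunit of the classical pathway, and lies at chr19:5637483-5648130 on the plus strand. Its only peak was in the young list, at chr19:5638002-5638272 (4.03-fold, 19 reads), in an intron and 519 bp from the start site. The fold of this peak was just below the median of its list, 4.04. The nearest aged H3K4me3 peak was 103660 bp away. With a promoter of 500 bp on either side, Rela was no longer counted, and the number of marked members was 6 at each age. At that width 29.9% of all genes carried the mark in young and 20.2% in aged HSCs.

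Nfkb1 encodes p105, the precursor of p50, and is the longest of the 10 genes (chr3:135584655-135691547, minus strand). From its start sites the nearest H3K4me3 peak was 133611 bp away in young HSCs and 134479 bp away in aged HSCs. Relb encodes the activating partner of p52 and lies at chr7:19606217-19629438 on the minus strand. Its nearest H3K4me3 peaks were 56107 bp away in young and 36112 bp away in aged HSCs. No peak of any of the 6 lists lay in the window of either gene.

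Of the classical IκB inhibitors, Nfkbia encodes IκBα, which NF-κB induces rapidly on activation. It is the shortest gene of the group (chr12:55489410-55492647, minus strand) and had no peak of any list in its window. The nearest H3K4me3 peak to its start site was 93525 bp away in young HSCs and 190059 bp away in aged HSCs. Its promoter nevertheless held a κB match 29 bases before the RefSeq start.

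Nfkbib encodes IκBβ, the slower member of the family, and lies at chr7:28758251-28767512 on the minus strand. The young list held H3K4me3 at chr7:28766027-28766470 (3.17-fold), over a UTR and coding exon, and at chr7:28766832-28767097 (5.04-fold, 24 reads), upstream of the coding start sites. The latter peak was only 16 bp from a start site of Sirt2, a neighbour that is read in the opposite direction, so its signal cannot be assigned to 1 of these genes. The aged list held 1 peak, at chr7:28766260-28766502 (5.22-fold, 29 reads), which overlapped the first of the young peaks. The promoters of Nfkbib and Rela in the RefSeq table held no κB match.

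Nfkbie encodes IκBε and lies at chr17:45555703-45563169 on the plus strand. H3K4me3 was listed in young HSCs at chr17:45555768-45555977 (2.88-fold) and chr17:45556216-45556424 (4.23-fold, 20 reads). In aged HSCs it was listed at chr17:45555726-45556090 (5.53-fold, 24 reads), 15 bp from a start site and overlapping the weaker young peak. This was the highest fold of any member at either age, above 94.9% of the peaks in its list.

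H3K27me3 was found in 2 of the 10 windows in young HSCs, those of Nfkbib and Nfkbie. At Nfkbib, the regions chr7:28755428-28756439 (3.34-fold) and chr7:28757343-28757542 (2.88-fold) lay over exons of Ccer2, downstream of the gene. At Nfkbie, the region chr17:45549792-45551322 (3.39-fold) lay upstream, 115 bp from a start site of Tmem151b and 4381 bp from the nearest start site of Nfkbie. All 3 regions thus lay outside the NF-κB genes, and none overlapped an aged region. The share of all young H3K27me3 regions that overlap an aged one was not computed, so this count has no background beside it. The whole young list held 63142 H3K27me3 regions over 40987 kb and the aged list 20419 over 10005 kb. Most of the young length therefore cannot overlap an aged region, at these genes or elsewhere.

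The nuclear IκB gene Nfkbiz encodes IκBζ, which acts on chromatin with p50 and is needed for a set of secondary response genes. It lies at chr16:55811375-55838899 on the minus strand and had the most H3K4me3 peaks of the group, 4 in the young list against 1 in the aged list. Around the upstream start, young peaks were listed at chr16:55838018-55838761 (4.64-fold, 22 reads) and chr16:55839006-55839205 (3.61-fold, 16 reads). The aged peak, chr16:55838528-55838847 (3.98-fold, 17 reads), overlapped the first of these. A further young peak at chr16:55821170-55821653 (4.46-fold, 20 reads) lay 485 bp from an internal start site, and another at chr16:55820027-55820282 (3.23-fold, 15 reads) was the only H3K4me3 peak in the 10 windows that was not at a promoter. Neither internal peak had an aged peak nearer than 16875 bp.

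Tnfaip3 encodes A20, an enzyme that edits ubiquitin chains and shuts off signalling upstream of the kinase complex. It lies at chr10:19000910-19015657 on the minus strand. The young list held H3K4me3 at chr10:19014201-19014866 and chr10:19014950-19015319, each at 5.31-fold with 24 reads, the highest fold of any member in young HSCs. The aged list held 3 narrower peaks, at chr10:19014240-19014454 (4.20-fold), chr10:19014532-19014850 (4.86-fold, 21 reads) and chr10:19014936-19015154 (4.42-fold). All 5 peaks overlapped a peak of the other age, which was the case for no other member. The peaks lay downstream of the upstream start site, whose nearest κB match was 94 bp from the closest young peak and 259 bp from the closest aged peak.

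**Figure D2:**
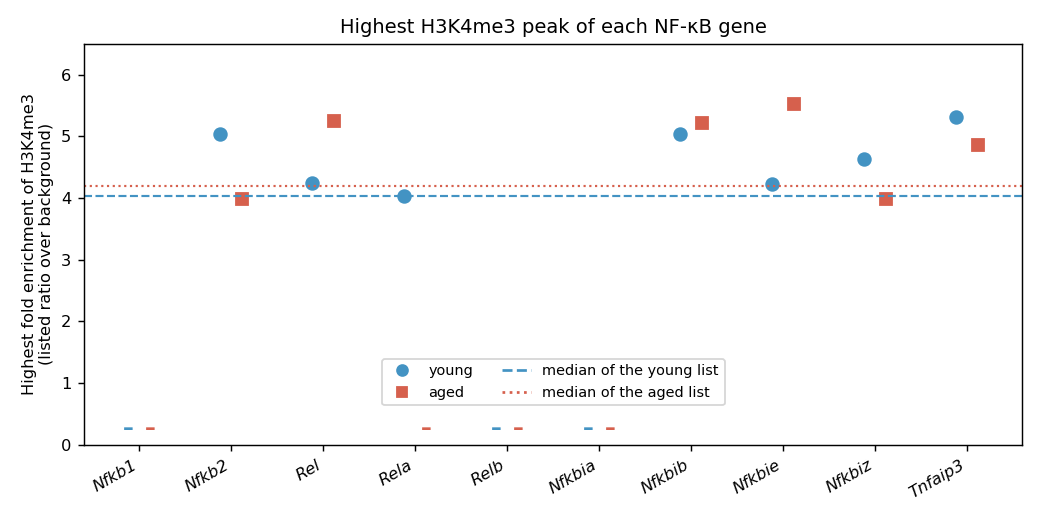
The vertical axis is the listed fold enrichment of the highest H3K4me3 peak in the window of each gene, with circles for young and squares for aged HSCs. Dashes at the bottom mark genes without a peak, and lines give the median of each whole list (4.04 young, 4.20 aged). Values run from 3.98 to 5.53, with Rel, Nfkbib and Nfkbie higher in the aged list and Nfkb2, Nfkbiz and Tnfaip3 higher in the young list.

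Of the 6 genes marked at both ages, the highest fold was thus larger in the aged list at Rel, Nfkbib and Nfkbie and larger in the young list at Nfkb2, Nfkbiz and Tnfaip3. The pileups of these peaks ran from 17 to 29 reads. For each gene, the 95% Poisson intervals of the reads at the 2 ages overlapped, as for Nfkb2 (15.4 to 35.7 in young, 9.90 to 27.2 in aged HSCs). These intervals cover counting error only. Over the marked members the median of the highest fold was 4.64 in young and 5.04 in aged HSCs, and over all marked genes it was 4.25 and 4.22. The medians at the 2 ages rest on different genes. They cover 7 and 6 members, with Rela (4.03) in the young list only, and 7389 and 5089 of all genes.

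In all, the 10 windows, which add up to 345.193 kb, held 16 young and 8 aged H3K4me3 peaks. They covered 1.60% of this length in young and 0.621% in aged HSCs, compared with 0.309% and 0.165% of the windows of all protein-coding genes. By gene, H3K4me3 lay in the windows of 7 and 6 members, and in those of 40.6% and 29.0% of all genes. Shortening the young list to the length of the aged list left 10 young peaks against 8, and joining peaks within 1 kb left 8 against 6. The number of NF-κB genes with promoter H3K4me3 was 7 in young and 6 in aged HSCs with equal lists as well, where 23.4% and 23.3% of all genes carried it.

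For the Polycomb marks, H3K27me3 lay in 2 member windows in young HSCs and none in aged HSCs, compared with 27.8% and 16.5% of all windows. It covered 0.531% of the member windows in the young list, compared with 2.11% of all windows. H2AK119ub1 lay in no member window in young and in 1 in aged HSCs, compared with 5.99% and 29.0% of all windows. The length it covered in aged HSCs was 0.479% in the member windows and 0.484% in all windows, all of it in the window of Nfkb2.

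Positions were compared between the ages. Of the 16 young H3K4me3 peaks at the NF-κB genes, 6 (37.5%) overlapped an aged peak. Among the 8 aged peaks, 7 (87.5%) had such a partner in the young list. Over the whole lists the shares were 31.5% and 53.1%. The aged peak without a partner was at Nfkb2. The young share depended on the rule for overlap. Within 500 bp, 11 of the 16 young and all 8 aged peaks had a partner, whereas with an overlap of at least 50% of the peak 18.75% of the young and 87.5% of the aged peaks did. The shares over the whole lists are for an overlap of at least 1 bp only, so these other values have no background beside them. No young peak and 2 aged peaks, at Nfkb2 and Rel, covered a start site. Over all genes, 16.1% of young promoter H3K4me3 peaks and 15.4% of aged ones did so. The member counts are small beside these similar shares, and a difference in position between the ages was not tested.

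CpG-rich promoters often carry H3K4me3, so the base composition of the 10 promoters was examined. Over 1 kb on either side of the start sites, the ratio of observed to expected CpG had a median of 0.592 in the 10 genes and 0.461 in all protein-coding genes. It was highest at Rel (0.908) and Rela (0.732). Nfkbia (0.686), Relb (0.658) and Nfkb1 (0.539), which had no H3K4me3 peak, all lay above Nfkbie (0.472) and Tnfaip3 (0.396), which had it at both ages. Genes with H3K4me3 at neither age had a median of 0.273. The ratio is an average over the start sites of a gene, and Tnfaip3 has 2. All its peaks were nearest to the upstream start. The 250 bases before that RefSeq start held 22 CpG, compared with 6 before the other RefSeq start. The value of 0.396 therefore does not describe the marked start of Tnfaip3 alone. Among the 12072 genes whose CpG ratio fell within the range of the members, 53.0% had promoter H3K4me3 in young and 36.7% in aged HSCs.

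**Figure D3:**
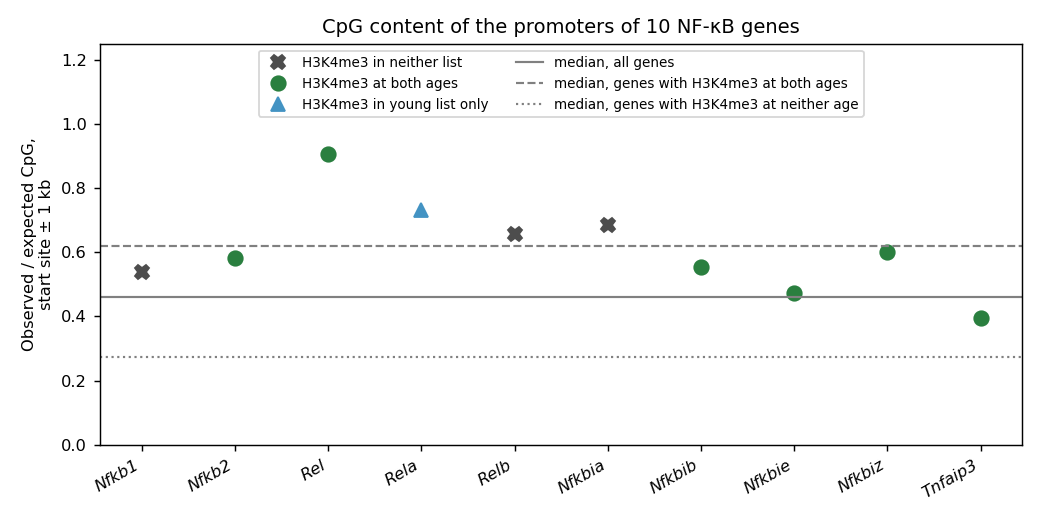
The vertical axis is the ratio of observed to expected CpG within 1 kb of the start sites, averaged over the start sites of each gene, with symbols for the H3K4me3 state. Lines give medians over all genes (0.461), genes with H3K4me3 at both ages (0.621) and genes with it at neither age (0.273). The 3 unmarked genes (0.539 to 0.686) lie above the line for all genes, and Tnfaip3 (0.396), marked at both ages, lies below it.

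The other genes of the pathway were taken from 5 lists with 58 genes. H3K4me3 was listed at 28 of them in young and 21 in aged HSCs, compared with 33.8% and 23.3% of all genes. It was listed at 17 at both ages, 11 in the young list only and 4 in the aged list only, where the shares of all genes were 17.5%, 16.3% and 5.78%. The kinases had the highest share, with 5 of 6 in young and 4 of 6 in aged HSCs. These were Chuk and Ikbkb, the catalytic IκB kinases, Map3k14, the kinase that starts the alternative pathway, and Tbk1 at both ages, with Ikbke in the young list only. Adaptors and signalling proteins carried it at 9 and 7 of 16, and further inhibitors at 5 and 4 of 9. Receptors carried it at 4 and 3 of 10. Target genes had the lowest share of the 5 lists, 29.4% (5 of 17) in young and 17.6% (3 of 17) in aged HSCs, near the shares of all genes. None of the lists was tested against all genes. The highest folds were at Map3k7, the kinase TAK1 (5.85-fold), and the survival gene Bcl2l1 (5.24-fold) in young HSCs, and at Tax1bp1, a partner of A20 (5.90-fold), and Chuk (5.75-fold) in aged HSCs.

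H3K4me3 was listed at neither age for 26 of the 58 genes, and for 13198 of all 21851 protein-coding genes. Among targets these were 12 genes: the cytokines Tnf, Il1b and Il6, the chemokines Cxcl1, Cxcl2, Ccl2 and Ccl5, the adhesion molecules Vcam1 and Sele, and Traf1, Ptgs2 and Nos2. The receptors Il1r1, Tlr9, Cd40, Tnfrsf11a and Tnfrsf13c were also without it. So were the adaptors Irak1, Tradd, Traf3, Birc2, Tab1 and Tab3, the kinase regulator Ikbkg, and the inhibitors Nfkbid and Itch.

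Promoter H3K27me3 was listed at 3 of the 58 genes at each age, compared with 16.0% of all genes in young and 8.24% in aged HSCs. Cd40 and Nos2 had it at both ages, Ikbkg in the young list only and Tab3 in the aged list only. H2AK119ub1 was listed at none in young and at 9 in aged HSCs, compared with 1.91% and 14.0% of all genes, so the aged share was close to that of all genes. The 9 genes were the receptors Cd40 and Tnfrsf11a, the adaptors Irak1 and Tradd, the inhibitor Bcl3, and the targets Tnf, Icam1, Traf1 and Nos2. Cd40 and Nos2 thus carried both Polycomb marks in aged HSCs. Of the 9, Bcl3 had H3K4me3 in the aged list and Icam1 in the young list, and the remaining 7 had it at neither age.

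**Figure D4:**
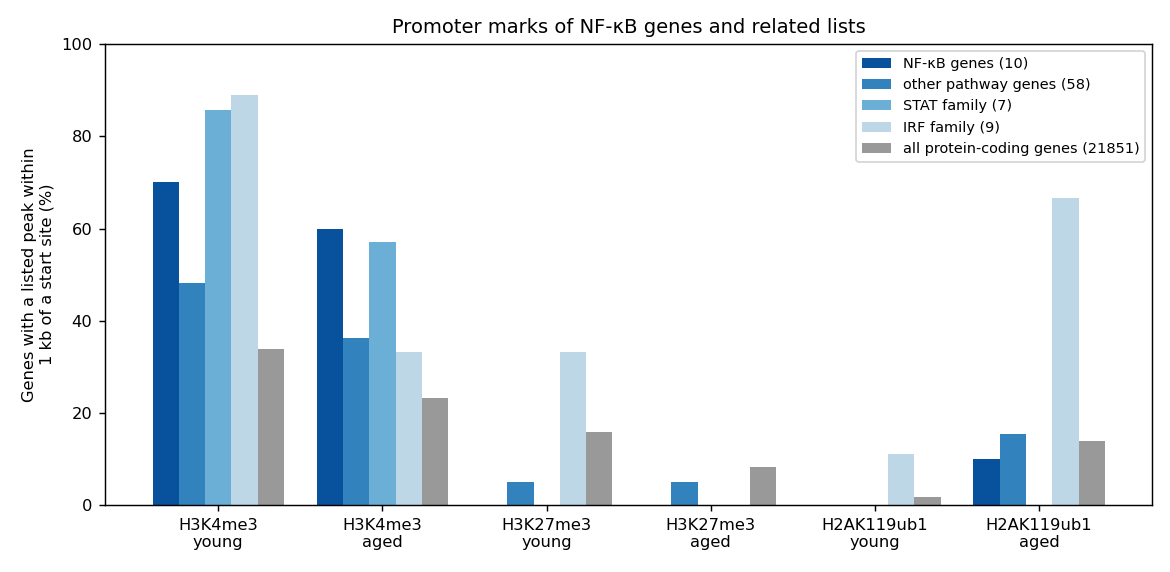
Bars give the percent of genes with a listed promoter peak, for each mark and age, in the 10 NF-κB genes, 58 other pathway genes, the STAT and IRF families and all protein-coding genes. For H3K4me3 the NF-κB bars stand at 70.0% in young and 60.0% in aged HSCs, above those of all genes at 33.8% and 23.3%. For aged H2AK119ub1 the IRF bar is the tallest, with 6 of 9 genes.

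As other families of signal-driven transcription factors, the STAT genes carried promoter H3K4me3 at 6 of 7 in young and 4 of 7 in aged HSCs, and the IRF genes at 8 of 9 and 3 of 9, compared with 33.8% and 23.3% of all genes. H3K27me3 was listed at 3 IRF genes in the young list and H2AK119ub1 at 6 IRF genes in the aged list, and no STAT gene had either mark at either age. Of all genes, 16.0% had young H3K27me3 and 14.0% had aged H2AK119ub1, so 0 of 7 STAT genes lies near these shares. The corresponding counts of the NF-κB genes were 7 and 6 of 10 for H3K4me3, 0 for young H3K27me3 and 1 for aged H2AK119ub1. With no replicate lists and few genes per family, whether these families differ was not tested.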

How the data were processed

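ChIP-seq of HSCs for H3K4me3, H3K27me3 and H2AK119ub1 was analysed from 6 deposited peak lists, 1 per mark and age. Chromatin had been cross-linked, sonicated and cut with micrococcal nuclease. The authors mapped single reads to mm10 using Bowtie2, and the submitters' processing notes name MACS2 2.2.6. The caller's settings are not given in the sources used here. The names of the peaks hold 2 library numbers for H3K4me3 but 1 for the broad marks, which leaves unclear whether the broad lists rest on both libraries. For each peak the deposited files give the fold enrichment as a linear ratio over background, and the −log10 of the p-value and of the q-value. In the broad lists these are averages over a region. The peak threshold, reads mapped to several places and unequal depth all affect which peaks are listed. Input libraries were not analysed here as separate files.

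Peaks of chromosomes 1 to 19, X and Y were overlapped, by at least 1 bp, with promoters (1 kb on either side of the protein-coding start sites in the basic set of GENCODE M21) and with gene bodies and 5 kb on either side, using pandas 2.3.3, numpy 2.4.6 and scipy 1.17.1 (Python 3.11.15). The pileup and background of H3K4me3 peaks were recovered from fold = (pileup + 1) / (background + 1) and the Poisson p-value, which gave whole reads for 100% of peaks (within 0.001 of the listed −log10 p). Read intervals are exact Poisson at 95%. Total depth per library is unknown. The κB consensus was searched on both strands of RefSeq promoters, and base composition was read with pysam 0.24.0. Scripts were tested on simulated data. Plots were drawn with matplotlib 3.10.9.

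Replicates are not separate in the lists, so no test was run, and counts of genes with a mark are read beside the share of all protein-coding genes. The members, the gene lists and the rules were chosen with earlier results of these data known. All 10 members were named with each of their peaks. Of the other pathway genes, those with a Polycomb mark at the promoter, those with H3K4me3 in neither list and the 2 highest H3K4me3 folds at each age were named, and the kinases and the marker Slamf1 were named after their values were seen. Alternatives were promoters of 500 bp or 2 kb, windows without flank or with 10 kb, a −log10 q-value of at least 4, lists of equal length, start sites of all transcripts, joined peaks and other overlaps. Lists were made equal by keeping the peaks with the highest −log10 q-values for H3K4me3 and the widest regions for the broad marks. Markers of other blood cells are not reported here.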

Additional observations from a re-analysis of the deposited data

How the results depend on the processing

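No paired analysis was possible because the replicates of a mark and age stand together in 1 pooled list, and for the same reason no replicate was left out. Of 98 alternative values, 72 stayed within 1.5 times the value given above or within its interval, and 26 moved. None of the H3K4me3 promoter counts of the NF-κB genes moved by over 1.5 times, from 6 to 7 genes in young and from 4 to 6 in aged HSCs, the lowest aged value with the stricter q-value (−log10 q of at least 4). With that q-value, 24.8% of all genes had promoter H3K4me3 in young and 15.7% in aged HSCs.

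The young H3K4me3 peaks in the windows numbered 10 instead of 16 with the stricter q-value or with lists of equal length, and 8 after joining peaks within 1 kb. Of the young peaks 68.75% and of the aged peaks 100% had a partner within 500 bp, and 18.75% of the young and 87.5% of the aged peaks had one over at least 50% of the peak. No whole-list share was set beside these values. Aged H2AK119ub1 was listed at 0 promoters, 0 regions and 0 bp with the stricter q-value and with equal lists, at 3 regions (533 bp) in gene bodies alone, at 9 regions (3026 bp) with 10 kb on either side, and at 3 joined regions. Its promoter share over all genes fell from 14.0% to 0.188% with the stricter q-value and to 3.53% with equal lists. Young H3K27me3 fell to 0 regions and 0 bp in gene bodies alone and with the stricter q-value, and stood at 8 regions (5867 bp) with 10 kb on either side. With the stricter q-value, the share of all genes with young promoter H3K27me3 also fell, from 16.0% to 2.18%. The flank of 10 kb also gave 2 aged H3K27me3 regions (638 bp) and 2 young H2AK119ub1 regions (547 bp). Wider windows reach neighbouring genes by construction. At the lowest background a peak needed a pileup of 13 reads to be listed, so a weaker mark at Nfkb1, Relb or Nfkbia was not detectable at this depth.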
